A study of Homo sapiens with 15 samples.

Results

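Complement is the cascade of plasma and cell-surface proteins that tags, opens or clears cells and microbes, and it is checked on host cells by regulators anchored in the membrane. The classical branch begins when C1q binds its target and switches on the proteases C1r and C1s, and all branches meet at C3, whose cleavage products coat the target surface. CD46 is a cofactor for the breakdown of deposited C3b and C4b, CD55 speeds the decay of the enzymes that cleave C3, and CD59 blocks the last step in which C9 is built into a pore. The liver makes most of the plasma components, but C3, C1r and C1s are also made by epithelial, mesenchymal and tumor cells, and carcinoma cells are known for high levels of the membrane regulators.

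The 6 genes described here are the secreted components C3, C1R and C1S and the membrane regulators CD46, CD55 and CD59, out of 59608 gene symbols in the expression table. They were taken by symbol, and the choice was made with dose profiles of these data already known, so their levels and differences from DMSO are a description and carry no test. MDA-MB-231, an established triple-negative breast cancer line, was grown as 3D spheroids for 72 h in ultra-low attachment plates and then treated for 24 h with ZJ-101, a man-made compound related to the sponge product superstolide A, at 0.5, 5, 50 or 500 nM, or with the vehicle (0.1% DMSO). Each of the 5 groups had 3 libraries of poly(A) RNA, and 1 library came from the spheroids of 1 pooled 96-well plate. All plates held the same unmodified line, so the replicates show the spread between plates of 1 line, and the comparisons ask how complement transcripts in formed spheroids differ from the vehicle over a range of doses.

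The libraries held 7773325 to 10065633 reads in genes (median 9108870), and values are normalised counts, that is, reads in a gene divided by the size factor of the library. The 6 markers of the line (VIM, CD44, EGFR, KRT18, KRT19 and AXL) had reads in every library and summed to between 37307 and 42468 normalised counts, whereas of 4 genes listed as scarce or low in it, PGR was at 0 in all 15 libraries and ESR1 was at 0 or close to it. The other two had reads in every library, ERBB2 with 1082 to 1314 normalised counts and EPCAM with 204 to 309. Of the macrophage markers, C1QA, C1QB, C1QC, CD163, MRC1 and TYROBP were at 0 in all libraries, and the 9 markers summed to 64.5 to 108, nearly all from CSF1R. Hepatocyte markers summed to 434 to 825, nearly all from SERPINA1, with APOB and TTR at 0, and endothelial markers to 177 to 256, mostly from PECAM1 and KDR. The 13 fibroblast markers were uneven between plates. They summed to 1155 to 1307 with DMSO, 1133 to 5235 at 0.5 nM, 1035 to 3861 at 5 nM, 693 to 733 at 50 nM, with 767 to 4342 at 500 nM. The high sums belonged to the second replicate of both low doses and to replicate 1 at 500 nM, and values without these 3 libraries are given where they bear on a gene. In bulk RNA, a lower level can reflect fewer cells of a type or less RNA per cell, and the design cannot tell these apart.

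On hg38 with GENCODE release 44, C1S lay on chromosome 12 from 6988259 to 7071032 on the plus strand and C1R from 7080214 to 7092540 on the minus strand, so that the pair faced each other tail to tail with 9181 bases between them. CD55 (chromosome 1, 207321519 to 207386804) and CD46 (chromosome 1, 207752037 to 207795513) both lay on the plus strand. CD59 lay on chromosome 11 from 33703010 to 33736479 and C3 on chromosome 19 from 6677704 to 6730562, both on the minus strand. Exons of other annotated genes on the same strand covered 11.7% of the exon bases of C3, 11.6% of C1R (all from its neighbour C1RL), 2.76% of C1S and 5.96% of CD59. For CD46, 5.14% was covered on the opposite strand, and for CD55 none. The strand setting of the counting is not given in the sources used here, so reads from these stretches may be shared or lost. Between 1.01% and 5.21% of the 31-base words of the 6 genes were also found on alternate contigs.

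RefSeq promoter windows on GRCh38.p14 were held for 4 of the 6 genes, C1R, CD46, CD55 and CD59. Within the 250 bases before the first listed start, both strands were searched for letters recognised by factors that are known to act on complement genes. TGACG, the core of the cyclic AMP response element, occurred once in C1R and in CD46 and at 2 places in CD55 but not in CD59, and 21.2% of 35097 promoter windows hold it. The windows of C1R and CD55 run into annotated exons. Their TGACG matches lay outside the longest stretch free of exons, of 155 bases in C1R and 91 in CD55. TTCNNNGAA, the element bound by STAT factors, occurred once, in CD59 (6.56% of all windows). TGANTCA, the AP-1 element (6.57%), GAAANNGAA, the core of the interferon response element (6.88%), the NF-kappaB element (9.95%) and TATAAA (10.7%) had no match in any of the 4 windows. GGGCGG (42.6%) was found in CD46 and CD55, and CCAAT (32.0%) in CD46 and CD59. The STAT and interferon elements can share bases, but no interferon element was matched. Windows of other listed starts differed. The second of C1R held TTCNNNGAA once, and the fourth of CD59 held TGANTCA at 2 places. A match is a description of letters and says nothing about binding in these cells. The windows of CD46 and CD59 are printed because these are the membrane regulators that were lower at 500 nM and because their windows lie outside annotated exons. Capitals mark TGACG in CD46 and TTCNNNGAA in CD59. The CD46 window is chr1:207751788-207752036 on the plus strand and that of CD59 is chr11:33736480-33736729 on the minus strand.
CD46: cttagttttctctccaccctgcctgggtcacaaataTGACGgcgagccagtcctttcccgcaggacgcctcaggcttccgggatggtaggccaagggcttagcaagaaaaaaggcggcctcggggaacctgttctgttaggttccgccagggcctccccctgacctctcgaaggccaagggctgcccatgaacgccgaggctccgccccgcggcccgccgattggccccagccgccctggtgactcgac
CD59: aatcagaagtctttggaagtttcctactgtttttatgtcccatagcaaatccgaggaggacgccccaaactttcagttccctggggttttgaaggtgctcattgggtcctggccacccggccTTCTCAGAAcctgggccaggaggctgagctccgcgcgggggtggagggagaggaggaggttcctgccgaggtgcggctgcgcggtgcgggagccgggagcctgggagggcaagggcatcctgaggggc

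Per kilobase of merged exon, the membrane regulators were above the secreted components in all groups but that at 5 nM, where C3 (181 ± 11.1 normalised counts per kb) was above CD46 (164 ± 6.78). At 500 nM CD59 had 252 ± 7.13 normalised counts per kb, CD55 227 ± 1.53, CD46 129 ± 1.80, C3 74.7 ± 1.64, C1R 7.32 ± 1.20 and C1S 2.21 ± 0.85 (SD, n = 3 plates each). The order was the same with DMSO, where CD59 had 298 ± 6.60, CD55 193 ± 2.46, CD46 162 ± 8.72, C3 129 ± 4.53, C1R 24.1 ± 3.49 and C1S 12.6 ± 1.80. C1S had the lowest and CD59 the highest level per kb in every group. The merged exons take in every annotated transcript and run from 5803 bases for C1R to 15505 for CD46. Which transcripts were present was not determined, so the order between genes depends on this annotated length and could differ with transcript lengths.

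C3, the component on which all branches converge, was highest at an intermediate dose and lowest at the top dose. It had 1547, 1442 and 1495 normalised counts with DMSO, 1795, 1737 and 1733 at 0.5 nM, and 2015, 2246 and 2033 at 5 nM. It had 1202, 1272 and 1258 at 50 nM and 846, 862 and 884 at 500 nM. No 2 groups overlapped, so the 5 groups stood in the order 500 nM, 50 nM, DMSO, 0.5 nM and 5 nM from lowest to highest. The group means were 1495 ± 52.5 with DMSO, 1755 ± 34.8 at 0.5 nM, 2098 ± 129 at 5 nM, 1244 ± 37.3 at 50 nM, with 864 ± 19.0 at 500 nM (SD, n = 3). As log2 fold changes against DMSO on the scale of log2 of the normalised count plus 1, these were 0.23, 0.49, -0.26 and -0.79, each with a standard error of 0.042. The level was 1.40-fold higher at 5 nM than with DMSO and 1.73 times lower at 500 nM. The largest step between neighbouring doses was that of 50 nM over 5 nM, at -0.75. The 5 nM library with many fibroblast transcripts, replicate 2, was the highest of its group, and without the 3 such libraries the log2 fold change was 0.44 at 5 nM and -0.77 at 500 nM.

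**Figure D1:**
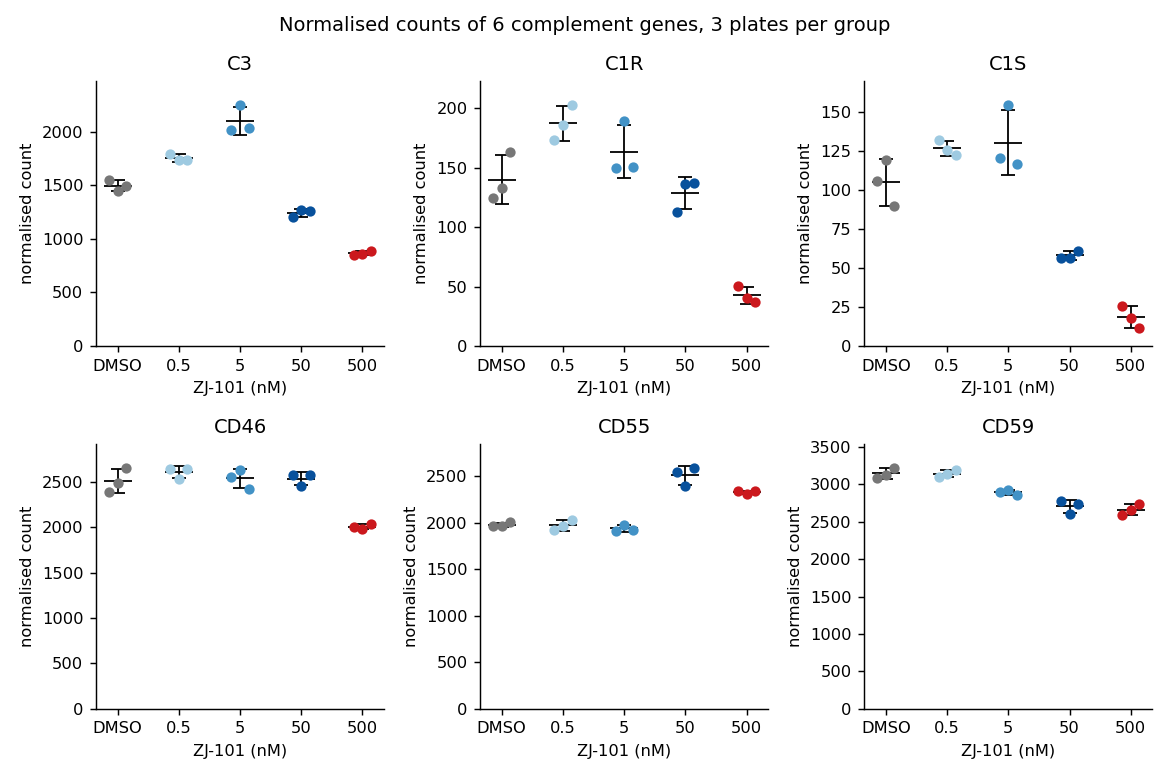
Normalised counts of the 6 genes (vertical axes, starting at 0) in spheroids given DMSO or ZJ-101 at 0.5 to 500 nM (horizontal axes); points are plates, black marks are the mean and SD of 3 plates. C3 was highest at 5 nM (2098 ± 129) and lowest at 500 nM (864 ± 19.0), C1R and C1S were lowest at 500 nM, and CD55 was the gene with its highest level at 50 nM (2511 ± 100.7).

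C1R encodes the protease that activates C1s within the C1 complex. C1R had 124, 133 and 163 normalised counts with DMSO, 173, 186 and 202 at 0.5 nM, and 150.0, 189 and 151 at 5 nM. It had 113, 136 and 137 at 50 nM and 50.2, 40.6 and 36.7 at 500 nM. The 0.5 nM plates were all above the DMSO plates and the 500 nM plates were all far below them, whereas the 5 and 50 nM plates overlapped with DMSO. The log2 fold changes were 0.42, 0.22, -0.12 and -1.70 in order of dose, each with a standard error of 0.12. C1R was thus 3.24 times lower at 500 nM than with DMSO, and nearly all of this lay between the last pair of doses, with a log2 fold change of -1.58 for 500 over 50 nM. Without the 3 libraries with fibroblast transcripts, the log2 fold change was 0.11 at 5 nM and -1.82 at 500 nM. With any 1 library left out, the C1R value lay between 0.11 and 0.34 at 5 nM and between -0.20 and -0.00 at 50 nM, the ends being set by DMSO replicate 3 and 5 nM replicate 2 at 5 nM, and by DMSO replicates 1 and 3 at 50 nM.

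C1S, the protease that cleaves C4 and C2, had 106, 119 and 89.4 normalised counts with DMSO, 132, 126 and 122 at 0.5 nM, and 120.0, 154 and 116 at 5 nM. It had 56.4, 56.4 and 61.1 at 50 nM and 25.6, 17.9 and 11.5 at 500 nM. All 3 plates at 0.5 nM were above the DMSO plates, but by little, the 5 nM plates overlapped with DMSO, and the 50 and 500 nM plates were below every DMSO plate. The log2 fold changes were 0.28, 0.31, -0.83 and -2.51, each with a standard error of 0.17. The value at 5 nM was 0.18 without replicate 2, the library with fibroblast transcripts, and 0.20 without DMSO replicate 3, and that at 0.5 nM was 0.17 without DMSO replicate 3. The level was 1.78 times lower at 50 nM and 5.69 times lower at 500 nM than with DMSO. C1S was the least covered of the 6 genes: 54 reads over 3 libraries at 500 nM (exact Poisson 95% interval 40.6 to 70.5, counting error only) against 318 with DMSO (284 to 355). Within the 500 nM group its plates spread from 10 to 25 reads, and the log2 fold change was -2.23 without replicate 3 and -2.77 without replicate 1, the library with fibroblast transcripts.

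C1R and C1S did not keep the same proportion over the doses. Log2 ratios were taken within a library after adding 1 to each normalised count, so they depend on library scaling only slightly, through the added count. That of C1R to C1S was 0.41 ± 0.39 with DMSO, 0.56 ± 0.17 at 0.5 nM, 0.33 ± 0.04 at 5 nM, 1.13 ± 0.13 at 50 nM, with 1.23 ± 0.34 at 500 nM (SD, n = 3). The 50 nM libraries lay between 0.99 and 1.25 and the 500 nM libraries between 0.94 and 1.60, all above the DMSO libraries at 0.15 to 0.86. The gap between 50 nM and DMSO was 0.72 with a standard error of 0.24, and between 500 nM and DMSO 0.81 with a standard error of 0.29. C3 was also higher relative to C1S at the upper doses. The log2 ratio of C3 to C1S was 3.83 ± 0.23 with DMSO, 4.40 ± 0.07 at 50 nM and 5.55 ± 0.58 at 500 nM.

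CD46, the cofactor that lets factor I cut C3b and C4b, stayed near its vehicle level until the last dose. CD46 had 2385, 2488 and 2653 normalised counts with DMSO, 2644, 2528 and 2639 at 0.5 nM, and 2557, 2629 and 2422 at 5 nM. It had 2579, 2454 and 2570.3 at 50 nM and 2005, 1976 and 2032 at 500 nM. Only the 500 nM plates lay outside the range of the DMSO plates, all below it. The log2 fold changes were 0.05, 0.02, 0.02 and -0.32, each with a standard error of 0.036, and the level at 500 nM was 1.25 times lower than with DMSO.

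CD55, or decay-accelerating factor, was the one of the 6 genes with higher levels at the 2 upper doses. CD55 had 1962, 1960.0 and 2005 normalised counts with DMSO, 1918, 1963 and 2034 at 0.5 nM, and 1915, 1976 and 1925 at 5 nM. It had 2544, 2398 and 2591 at 50 nM and 2339, 2311 and 2338 at 500 nM. The groups up to 5 nM overlapped, whereas both upper doses were above every DMSO plate, with 50 nM above 500 nM in all plates. The log2 fold changes were -0.00, -0.03, 0.34 and 0.24, each with a standard error of 0.036, so the level was 1.27-fold higher at 50 nM and 1.18-fold higher at 500 nM than with DMSO.

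CD59, the inhibitor of the membrane attack complex, moved in smaller and more even steps. CD59 had 3085, 3132 and 3222 normalised counts with DMSO, 3094, 3145 and 3187 at 0.5 nM, and 2896, 2926 and 2864 at 5 nM. It had 2773, 2610.0 and 2740.3 at 50 nM and 2593, 2655 and 2743 at 500 nM. The 0.5 nM plates overlapped with DMSO, all plates from 5 nM on were below the DMSO plates, and the 50 and 500 nM plates overlapped with each other. The log2 fold changes were -0.00, -0.12, -0.22 and -0.24, each with a standard error of 0.033, and the level at 500 nM was 1.18 times lower than with DMSO.

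**Figure D2:**
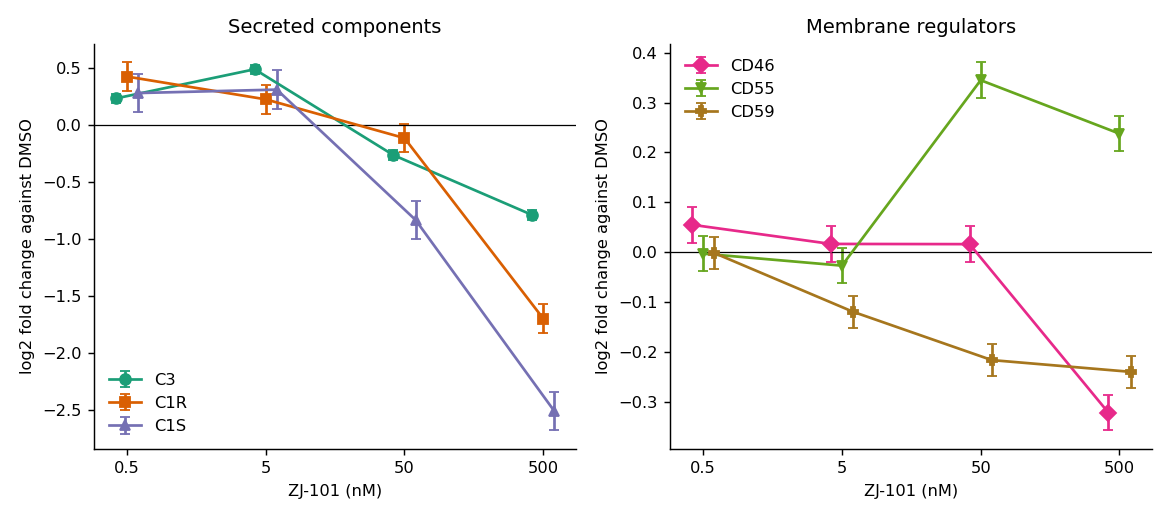
Log2 fold change against DMSO (vertical axes, different scales) at each dose of ZJ-101 (horizontal axes) for the 3 secreted components on the left and the 3 membrane regulators on the right; bars are standard errors of the fit to all 15 libraries. At 500 nM C1S reached -2.51 and C1R -1.70, whereas CD46 was at -0.32, CD59 at -0.24 and CD55 at 0.24.

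The proportions of the membrane regulators shifted with dose. The log2 ratio of CD55 to CD59 was -0.67 ± 0.02 with DMSO, -0.67 ± 0.02 at 0.5 nM, -0.58 ± 0.02 at 5 nM, -0.11 ± 0.02 at 50 nM, with -0.19 ± 0.04 at 500 nM (SD, n = 3), and the libraries from 5 nM on did not overlap with DMSO. The gap to DMSO was 0.56 with a standard error of 0.017 at 50 nM and 0.48 with a standard error of 0.026 at 500 nM. The log2 ratio of CD46 to CD59 was -0.33 ± 0.05 with DMSO, -0.27 ± 0.04 at 0.5 nM, -0.19 ± 0.05 at 5 nM, -0.10 ± 0.01 at 50 nM, with -0.41 ± 0.03 at 500 nM. It was thus highest at 50 nM, and at 500 nM it was 0.08 below DMSO with a standard error of 0.033, with ranges that just met.

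**Figure D3:**
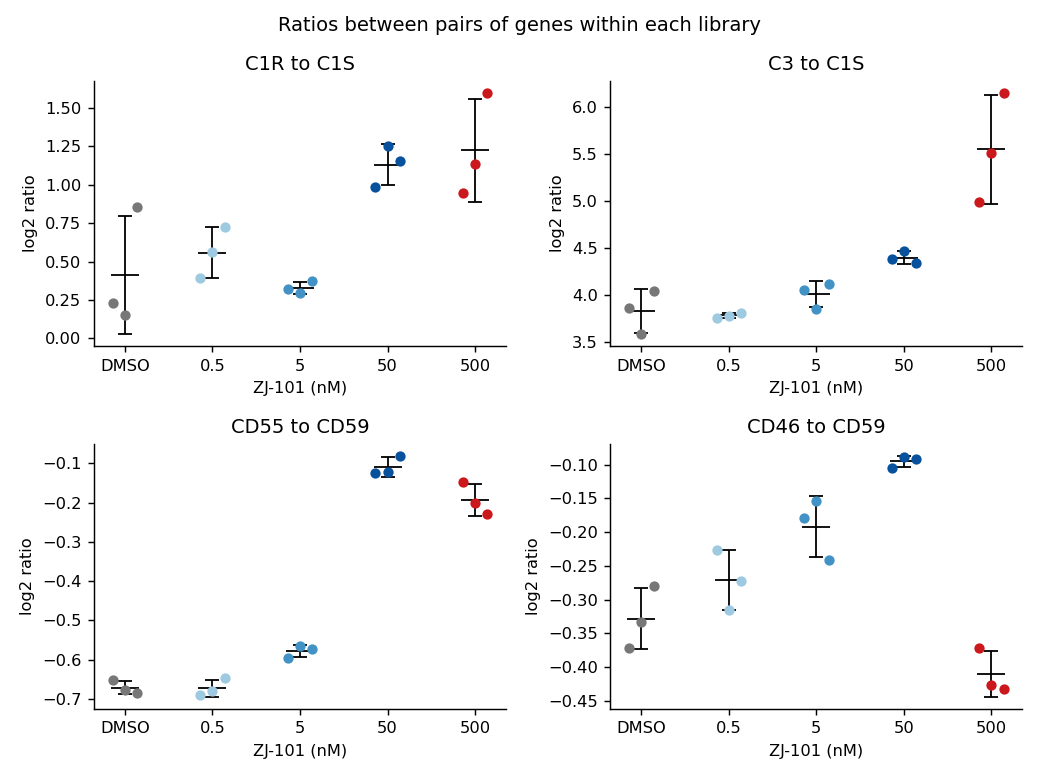
Log2 ratio of pairs of the 6 genes within each library (vertical axes, not starting at 0) with DMSO or ZJ-101 at 0.5 to 500 nM (horizontal axes); points are plates, black marks the mean and SD of 3 plates. The ratio of C1R to C1S was 1.13 ± 0.13 at 50 nM against 0.41 ± 0.39 with DMSO, and that of CD55 to CD59 was -0.11 ± 0.02 at 50 nM against -0.67 ± 0.02 with DMSO.

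Counted together, 3 of the 6 genes (C3, C1R and C1S) had all 3 plates above all DMSO plates at 0.5 nM and 0 had all below, where 6.32% and 6.08% of the 15233 genes that averaged at least 10 did so. At 5 nM C3 was above and CD59 below (11% and 10.2% of all genes). At 50 nM CD55 was above and C3, C1S and CD59 were below (17% and 16%). At 500 nM CD55 was above and the other 5 were below (21% and 20.4%). The median log2 fold change of the 6 genes was 0.14, 0.12, -0.17 and -0.56 in order of dose, whereas that of all genes was 0.00, 0.00, -0.00 and -0.00. Since the genes were chosen on such profiles, nothing is read from these counts.

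For each gene, the 3 genes with the most similar profile were listed by Pearson correlation of log2 levels over the 15 libraries. The libraries form 5 dose groups and share their scaling, so these values mostly follow the group means, and no p-value belongs to them. C3 was closest to HIF1A, the oxygen-regulated subunit of HIF-1 (r = 0.989), GNPTAB, which marks lysosomal enzymes with mannose 6-phosphate (r = 0.986), and BEST1, a chloride channel gene (r = 0.983) whose exons overlap those of FTH1 on the opposite strand over 14.6% of their bases. BEST1 had 26234 ± 721 normalised counts with DMSO, and whether these reads came from FTH1 was not tested. HIF1A had 4631 ± 68.8 normalised counts at 500 nM, against 5786 ± 52.3 with DMSO, and it peaked at 5 nM with 6526 ± 238. C1R was closest to EDIL3, a secreted integrin ligand (r = 0.976), TMEM263 (r = 0.974) and MORC4 (r = 0.972). C1S was closest to ITGA6, the integrin alpha 6 chain (r = 0.984), TNC, the matrix protein tenascin C (r = 0.981), and CKAP4, a membrane protein of the endoplasmic reticulum (r = 0.980). TNC had 204 ± 33.3 normalised counts at 500 nM, against 1065 ± 48.9 with DMSO.

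CD46 was closest to LAMC1 (r = 0.954) and LAMB1 (r = 0.952), a pair of laminin chains, and to ATRN, which encodes attractin (r = 0.952). LAMC1 shared with it the level near DMSO up to 50 nM, and had 1515 ± 28.7 normalised counts at 500 nM, against 3695 ± 19.0 with DMSO. CD55 was closest to RPN2, a subunit of the oligosaccharyltransferase (r = 0.983), PLPP5, a phospholipid phosphatase (r = 0.972), and MIA3, which helps load large cargo at exit sites of the endoplasmic reticulum (r = 0.963). MIA3 had 1400.2 ± 25.01 normalised counts at 50 nM, against 815 ± 11.4 with DMSO. CD59 was closest to CTNNB1, which encodes beta-catenin (r = 0.966), ARSD, a sulfatase gene (r = 0.966), and ERLEC1, a lectin of the endoplasmic reticulum (r = 0.965).

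The rest of the complement system was mostly at or near 0 in these spheroids. Of 56 other complement genes listed by role, 18 had no read in any library, 23 had reads but a mean below 10, and 15 could be tested. No read was counted for C1QA, C1QB or C1QC, the chains of the subunit through which the C1 complex finds its target, so these were not detectable at this depth. C2 and CFB, which lie in the major histocompatibility complex, had at most 1.81 normalised counts in any library, but all words of C2 and 99.5% of those of CFB also occur on alternate contigs, so reads may have been discarded there. The same holds for CFD, which averaged below 10, with 98.5% of its words. C4A and C4B are near-identical copies, C4A varied from 5.73 to 71.9 normalised counts between libraries, and their levels are uncertain. The tests that follow are two-sided limma tests of each dose against DMSO. Their p-values were adjusted by Benjamini-Hochberg over all 15233 genes, with a threshold of 0.05. The list of other complement genes was also chosen with earlier results of these data known, so its counts of calls are a description.

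At 500 nM limma called 4 of the 15 genes higher and 5 lower, where it called 16.2% of all genes higher and 16.2% lower. Among the genes listed for initiation and recognition, 3 of the 5 tested fell and 0 rose. COLEC12, a scavenger receptor of the collectin family, had 5.12, 2.83 and 3.44 normalised counts at 500 nM, against 44.6, 41.5 and 38.2 with DMSO, and its log2 fold change was -3.17 (standard error 0.28, adjusted p = 6.13e-18). C1RL, a protease gene next to C1R and similar to it, fell by 1.14 on the log2 scale (standard error 0.12, adjusted p = 9.23e-14), to 70.4 ± 11.7 normalised counts at 500 nM against 155 ± 9.65 with DMSO (SD, n = 3). PTX3, a soluble pentraxin that can bind C1q, had a log2 fold change of -0.52 (standard error 0.079, adjusted p = 3.06e-08). C4A and MASP2, which encode components of the initiating steps, did not pass the test.

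Of the fluid-phase regulators, C4BPB, the beta chain of the C4b-binding protein, rose by 0.47 on the log2 scale at 500 nM (standard error 0.11, adjusted p = 0.000189), with 198, 196 and 194 normalised counts against 137, 135 and 153 with DMSO. CLU, which encodes clusterin, an inhibitor of the terminal complex, rose at 500 nM by 0.10 (standard error 0.033, adjusted p = 0.0111). VTN did not pass at that dose. The membrane regulators SUSD4 and THBD fell, both of those tested outside the 6 genes: SUSD4 had a log2 fold change of -1.13 (standard error 0.28, adjusted p = 0.000683) and THBD, the gene of thrombomodulin, of -0.26 (standard error 0.048, adjusted p = 3.66e-06). The terminal component C5 rose by 0.43 (standard error 0.17, adjusted p = 0.0433) and C1QBP, a mitochondrial protein first found as a C1q binder, by 0.13 (standard error 0.042, adjusted p = 0.0149). ITGB2, a chain of the complement receptors of leukocytes, did not pass at any dose. The call for C5 was lost with DESeq2 (adjusted p = 0.164) and with edgeR (adjusted p = 0.0718).

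At 50 nM limma called 3 of the 15 genes higher and 4 lower (10.9% and 9.66% of all genes). The 3 genes of the initiation and recognition list that fell at 500 nM were lower here too. Their log2 fold changes were -1.41 for COLEC12 (adjusted p = 3.67e-05), -0.52 for C1RL (adjusted p = 0.000514) and -0.42 for PTX3 (adjusted p = 1.21e-05). CFP, the gene of properdin, which stabilises the alternative pathway convertase, had a log2 fold change of -0.83 at 50 nM (standard error 0.16, adjusted p = 1.59e-05). It had 56.4, 34.4 and 54.9 normalised counts there, against 87.1, 85.8 and 83.4 with DMSO, and at 500 nM it had 76.5 ± 10.6 and did not pass. Exons of another gene cover 49.0% of its exon bases on the same strand. CLU rose by 0.18 (adjusted p = 4.25e-06), THBD by 0.16 (adjusted p = 0.00991) and VTN, the gene of vitronectin, by 0.68 (adjusted p = 0.0314). The call for VTN was lost with DESeq2 (adjusted p = 0.129) and with edgeR (adjusted p = 0.0691).

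At 5 nM, where C3 was at its highest, limma called 1 of the 15 genes higher and 3 lower (3.63% and 3.28% of all genes). CLU had the smallest p, with 2107, 2111 and 2284 normalised counts at 5 nM against 3258, 3103 and 3211 with DMSO, and a log2 fold change of -0.56 (standard error 0.033, adjusted p = 2.50e-27). Its direction at 5 nM was thus opposite to that at 50 and 500 nM. C1RL fell by 0.40 (adjusted p = 0.0292), and C1QBP rose by 0.13 (adjusted p = 0.0421). Both of these calls were lost with DESeq2 (adjusted p = 0.078 for C1RL and 0.106 for C1QBP), and that of C1QBP also with edgeR (adjusted p = 0.052). At 0.5 nM limma called 0 of the 15 genes (0.0656% of all genes higher and 0.00656% lower), with 2 at an unadjusted p under 0.05, and DESeq2 and edgeR also called 0.

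**Figure D4:**
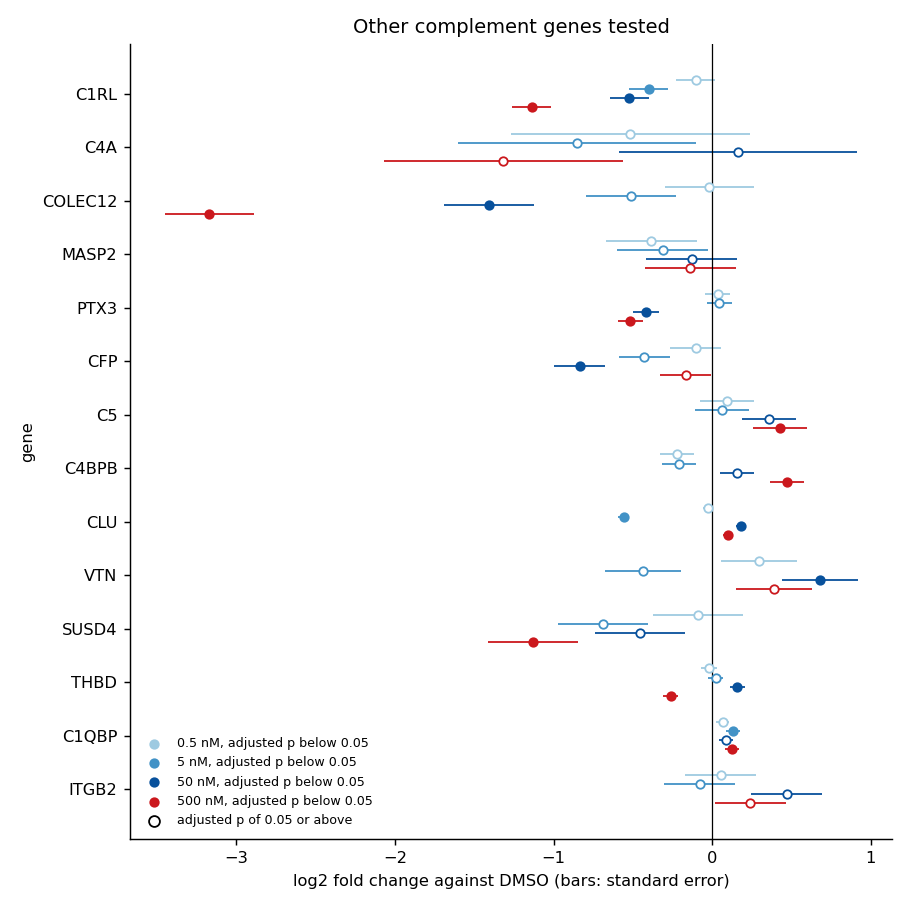
Log2 fold change against DMSO (horizontal axis) of other complement genes tested, at 4 doses of ZJ-101. Rows are grouped from genes listed for initiation and recognition at the top to receptors at the bottom. Filled points passed an adjusted p of 0.05 in limma, open points did not, and bars are standard errors. COLEC12 reached -3.17 at 500 nM, and CLU was at -0.56 at 5 nM but at 0.18 at 50 nM.

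Transcription of C3, C1R and C1S is known to be raised by interleukin 1, interleukin 6, tumor necrosis factor and the interferons, which act through NF-kappaB, C/EBP, STAT and IRF factors. Of 30 genes listed for these pathways, 28 could be tested. The list also holds inhibitors, SOCS1, SOCS3 and NFKBIA, all called lower at 50 and 500 nM, so its counts are not of activating genes alone. It was chosen with earlier results of these data known, so its counts of calls are a description. Limma called 1 higher and 0 lower at 0.5 nM, 1 higher and 4 lower at 5 nM, 4 higher and 15 lower at 50 nM, and 2 higher and 19 lower at 500 nM, with a median log2 fold change of -0.00, -0.07, -0.18 and -0.25. Over all genes tested, the shares called higher and lower were 0.0656% and 0.00656% at the lowest dose, 3.63% and 3.28% at 5 nM, 10.9% and 9.66% at 50 nM, with 16.2% and 16.2% at the top dose, and the median was 0.00, 0.00, -0.00 and -0.00. At 0.5 nM the only call was CEBPB, the C/EBP beta factor. CEBPB had 935, 972 and 899 normalised counts at 0.5 nM, against 646, 735 and 765 with DMSO, and a log2 fold change of 0.39 (standard error 0.060, adjusted p = 0.000329). At 5 nM CEBPB had 649.6 ± 46.0 and did not pass. Whether CEBPB bears on the levels of C3, C1R or C1S was not tested.

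At 500 nM the 6 genes of that list with the smallest p all fell. The 2 called higher were LIF, with a log2 fold change of 0.28 (adjusted p = 0.000441), and LIFR, with 0.31 (adjusted p = 4.76e-07). IL1R1, the receptor of interleukin 1, had 265, 278 and 284 normalised counts at 500 nM, against 587, 586 and 597 with DMSO, and a log2 fold change of -1.09 (standard error 0.063, adjusted p = 3.72e-30). STAT3 had a log2 fold change of -0.51 (adjusted p = 5.30e-22), IFNGR1, the ligand-binding chain of the interferon gamma receptor, of -0.73 (adjusted p = 8.87e-18), and NFKBIA, an inhibitor and target of NF-kappaB, of -0.48 (adjusted p = 9.39e-16). IRF1 fell by 0.43 (adjusted p = 1.29e-11) and JAK1, a kinase of these receptors, by 0.30 (adjusted p = 2.87e-09). Exons of genes on the opposite strand cover 22.9% of the exon bases of IRF1. Whether these transcripts bear on the levels of C3, C1R or C1S was not tested.

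**Figure D5:**
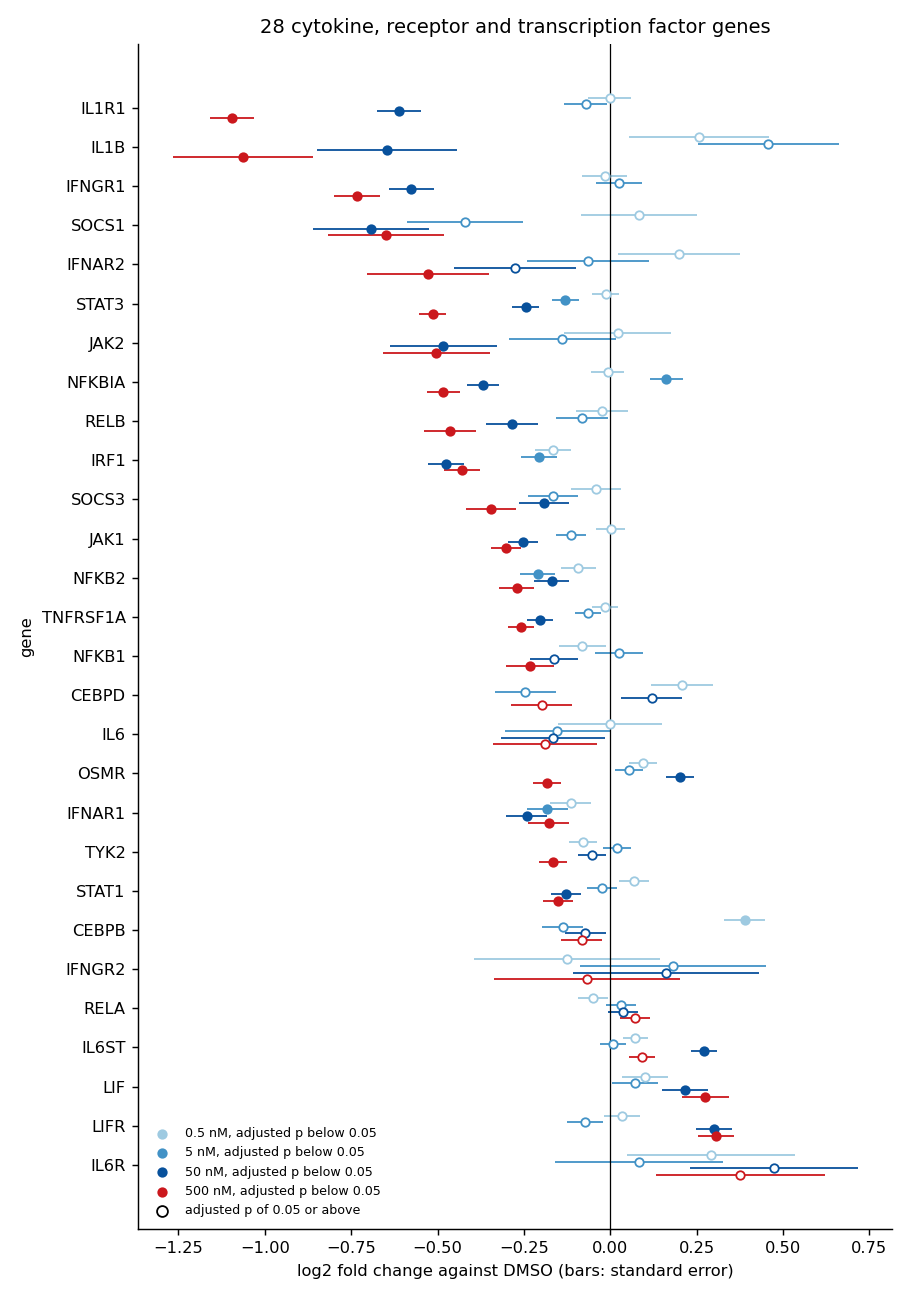
Log2 fold change against DMSO (horizontal axis) of 28 genes for regulators of complement expression, inhibitors among them, at 4 doses of ZJ-101. Rows are ordered by the value at 500 nM. Filled points passed an adjusted p of 0.05 in limma, open points did not, and bars are standard errors. IL1R1 had the lowest value at 500 nM (-1.09), and CEBPB was the only filled point at 0.5 nM (0.39).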

How the data were processed

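Poly(A) RNA of the 15 spheroid libraries was sequenced as paired-end reads; per the study's methods, the authors aligned the reads to hg38 with HISAT2, counted them per gene with htseq-count on a GENCODE annotation and ran DESeq2 on a Galaxy server. Tool versions, the annotation release and the strandedness of counting are not given in the sources used here. The file the authors deposited lists 59608 symbols with signal values: counts that DESeq2 had scaled by a size factor per library. In each library, 100.0% of the values were whole multiples of 1 read within 0.001, so reads could be recovered. The 4 deposited tables of mean, log2 fold change, standard error, Wald score, p-value and adjusted p-value for each dose against DMSO are the authors' own comparisons and were not used. No column of per-sample values was left unmapped.

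Groups came from the labels. The main fit was limma 3.58.1 (limma-trend, robust) on log2 of the normalised count plus 1, for 15233 genes (those averaging at least 10 normalised counts), with the 5 groups in 1 model and two-sided p-values adjusted by Benjamini-Hochberg over all genes (threshold 0.05). It was tested on simulated data. P-values and standard errors of this fit rest on the spread between plates, with the variance of each gene moderated towards that of genes of similar level. For C1S, with a residual SD of 0.28, this made the standard error (0.17) smaller than its own spread would give. The 6 genes and all gene lists were chosen with earlier results of these data known; the 6 genes are therefore described without tests. Named otherwise were the complement genes called at 50 or 500 nM (up to 4 per role, by smallest p at 500 nM, with their calls at lower doses and the uncalled genes whose limits are given), the 6 regulators of complement expression with the smallest p at 500 nM, and the 3 genes most correlated with each of the 6. CEBPB, the sole call of its list at 0.5 nM, was named after its values were seen. So were LIF and LIFR, called higher at 500 nM, and the inhibitors SOCS1 and SOCS3. IFNGR2 was named for the limit on its counts. A tested complement gene is counted but not reported here.

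Alternatives were no filter, a minimum mean of 50, TMM scaling, a pseudocount of 5, only the 2 groups compared, a replicate block, count models fitted to recovered reads (edgeR 4.0.16 and DESeq2 1.42.0), leaving out each library, and leaving out the 3 libraries with fibroblast transcripts. Positions came from GENCODE release 44 and promoters from RefSeq (GRCh38.p14); C3 and C1S had no promoter entry. Other software was Python 3.11.15 (scipy 1.17.1, pandas 2.3.3, numpy 2.4.6, matplotlib 3.10.9) and R 4.3.3.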

Additional observations from a re-analysis of the deposited data

How the results depend on the processing

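The log2 fold changes of the 6 genes moved by less than the residual SD in all 216 values under the settings other than single left-out libraries. The filters, the fit of only the 2 groups and the replicate block cannot change a difference of group means, so their values were fixed in advance. DESeq2, edgeR, TMM, a pseudocount of 5 and the fit without the 3 libraries with fibroblast transcripts could move them, with 24 values each. The last of these could not do so at 50 nM, where no library was left out. Leaving 1 library out of a group can exceed the residual SD only where that group spreads much more than the others. Values that stay within it therefore say little. With 1 library left out, 143 of 144 values moved by less than the residual SD. The exception was C1S at 500 nM, which ranged from -2.77 to -2.23 over the left-out libraries. The 4 ratios stayed within their SD in all 16 values with a pseudocount of 5. They also did in all 96 with a library left out. With 3 libraries per group, leaving 1 out cannot move a ratio beyond that SD, so these 96 outcomes were fixed in advance.

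Counts of other genes were less stable at the low doses. Of the other complement genes, 1 instead of 0 was called at 0.5 nM without a filter, and at 5 nM 2 instead of 4 were called with DESeq2, without a filter and without the 3 libraries with fibroblast transcripts. Leaving out 1 library gave 1 to 3 calls at 5 nM, with 2 without DMSO replicate 1 and 1 without DMSO replicate 2 or 5 nM replicate 1. Of the regulators of complement expression, 3 instead of 5 were called at 5 nM with DESeq2 and with only the 2 groups compared, and leaving out 1 library gave 1 to 6 calls, with 1 without DMSO replicate 3, 3 without 5 nM replicate 1 and 2 without 5 nM replicate 3. The cause was not tested. Single calls lost with 1 library left out, given with their adjusted p in limma, were those of CLU at 500 nM without DMSO replicate 2 (0.0791) or 500 nM replicate 2 (0.0862), C1QBP at 500 nM without DMSO replicate 1 (0.074) or 500 nM replicate 3 (0.109), and THBD at 50 nM without DMSO replicate 2 (0.0686) or 50 nM replicate 2 (0.109). C5 at 500 nM was lost in 4 of 6 such fits (0.0818 to 0.234), without DMSO replicates 1 or 3 or 500 nM replicates 1 or 3. VTN at 50 nM was lost without DMSO replicates 1 or 2 or 50 nM replicate 1 (0.162 to 0.21). At 5 nM, C1RL was lost in all fits but that without DMSO replicate 3 (0.0534 to 0.126), and C1QBP in all but that without 5 nM replicate 3 (0.0561 to 0.228). Over all genes, 636 were called at 5 nM with DESeq2, against 553 higher and 500 lower in limma, and 4 (DESeq2) to 32 (no filter) at 0.5 nM, against 10 higher and 1 lower. At 50 and 500 nM all list counts stayed within 1.5 times the main count, and no named gene reversed its direction under these settings.

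Same-numbered plates did not deviate together (1 of 30 pairs had a correlation over 0.1, range -0.12 to 0.18), and the main fit did not pair them. The labels do not say whether they were set up together. With a replicate block, the other complement genes called were 0, 4, 7 and 9 and the regulators 1, 5, 19 and 22 from 0.5 to 500 nM. TMM scaling moved the median of all genes by at most 0.003. Depth limits C1S most, with 10 to 25 reads per library at 500 nM, and C4A, C4B, C2, CFB, CFD and IFNGR2 cannot be read reliably from these counts.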
